A study of Homo sapiens with 6 samples.

Results

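GDNF, WNT16, CKM and ZBTB7C are 4 genes that lie at sites where acetylated histone H3 lysine 27 (H3K27ac) was listed with a high score in H69, a line of small cell lung cancer (SCLC), and was not listed nearby in its derivative H69M. They were chosen by measured values. All H69 H3K27ac peaks with no H69M H3K27ac peak within 5000 bp were ordered by the authors' score, the first 5 were taken, and 4 of these 5 fell at a gene of this set. The span of each gene on genome build hg19 was then extended by 10 kb on each side, and these windows held 69 of the 148837 peaks in the 4 deposited lists: 41 H69 H3K27ac peaks, 7 H69M H3K27ac peaks, 1 H69 H3K27me3 peak and 20 H69M H3K27me3 peaks. Because H3K27ac chose the genes, its difference between the lines is a description of them and supports nothing further. H3K27me3 was not used in the choice.

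The study compared H69, an established line that the labels name NCI-H69, with H69M, which was derived from it and is known from earlier work as a line with mesenchymal features. The labels give no treatment or genotype that separates the lines beyond this derivation, and do not say whether H69M is a single clone. Each line gave 1 chromatin immunoprecipitation sequencing (ChIP-seq) library for H3K27ac and 1 for trimethylated lysine 27 (H3K27me3), so no difference has a replicate check and no p-value was computed. The lists hold no read counts, so depth is unknown, and they hold no RNA, so nothing here says whether any of the genes was expressed. Chromosomes 1 to 22 and X carried 38255 H69 and 51091 H69M peaks of H3K27ac, and 21638 H69 and 37853 H69M peaks of H3K27me3.

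H3K27ac is found at promoters and enhancers in use. H3K27me3 is laid on the same residue by Polycomb repressive complex 2, mostly over CpG-rich promoters of developmental genes, and a single lysine cannot carry both marks. GDNF encodes glial cell line-derived neurotrophic factor, a secreted ligand that signals through GFRA1 and the receptor tyrosine kinase RET in neurons and kidney. WNT16 encodes a secreted WNT ligand best known in bone. CKM encodes the muscle form of creatine kinase, an enzyme that buffers ATP in skeletal and heart muscle. ZBTB7C encodes a DNA-binding protein with a BTB domain and zinc fingers.

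The promoter windows of the 4 genes are shown first, because H3K27me3 is known to favour CpG-rich promoters. Each runs from 250 bases before to 50 bases after a RefSeq start and comes from RefSeq on GRCh38.p14, another build than the peaks. Capitals mark CpG dinucleotides. RefSeq held 4 such windows for GDNF and 3 for ZBTB7C, 1 of each being printed, and 1 each for WNT16 and CKM. The GDNF window is the one at the gene's outer end, and the ZBTB7C window was picked after its CpG number was seen. The 3 ZBTB7C windows belong to starts 37.0, 219 and 275 kb into the gene, the last being the printed one, so none of them stands for the outer gene start, where the H69 peak that chose ZBTB7C lies.
GDNF (chr5:37839992-37840291, minus strand): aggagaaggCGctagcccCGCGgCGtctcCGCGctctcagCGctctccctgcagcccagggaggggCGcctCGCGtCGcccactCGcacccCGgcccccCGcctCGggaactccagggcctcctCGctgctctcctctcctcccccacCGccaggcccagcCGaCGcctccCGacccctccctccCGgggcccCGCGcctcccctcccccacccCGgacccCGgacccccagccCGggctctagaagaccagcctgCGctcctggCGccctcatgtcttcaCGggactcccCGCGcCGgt
WNT16 (chr7:121328750-121329049, plus strand): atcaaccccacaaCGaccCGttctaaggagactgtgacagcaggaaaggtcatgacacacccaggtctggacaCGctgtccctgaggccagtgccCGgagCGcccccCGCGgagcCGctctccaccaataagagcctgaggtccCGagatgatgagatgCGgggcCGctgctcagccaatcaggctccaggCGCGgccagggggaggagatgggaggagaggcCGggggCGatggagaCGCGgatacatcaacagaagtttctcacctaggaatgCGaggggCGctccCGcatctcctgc
CKM (chr19:45322826-45323125, minus strand): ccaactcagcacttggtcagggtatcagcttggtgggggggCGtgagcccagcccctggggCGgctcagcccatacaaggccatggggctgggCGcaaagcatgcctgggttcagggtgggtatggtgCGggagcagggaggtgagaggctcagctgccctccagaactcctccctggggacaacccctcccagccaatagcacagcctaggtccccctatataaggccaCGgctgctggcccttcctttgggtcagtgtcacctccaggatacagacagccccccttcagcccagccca
ZBTB7C (chr18:48137099-48137398, minus strand): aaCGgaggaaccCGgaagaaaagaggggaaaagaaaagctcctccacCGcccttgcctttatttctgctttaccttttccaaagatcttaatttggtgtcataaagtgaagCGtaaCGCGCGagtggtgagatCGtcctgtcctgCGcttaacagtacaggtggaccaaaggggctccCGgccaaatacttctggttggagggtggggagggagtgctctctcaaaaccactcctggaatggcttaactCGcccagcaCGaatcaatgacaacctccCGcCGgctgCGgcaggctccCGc

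The windows differed in CpG content. The GDNF window held 32 CpG dinucleotides, more than 81.1% of 34961 RefSeq promoter windows. WNT16 held 20 (more than 58.8%), the printed ZBTB7C window 16 (more than 52.4%) and CKM 5 (more than 29.6%), against a median of 14. The other ZBTB7C windows held 2 and 0, and the other GDNF windows 15, 6 and 23. The observed to expected CpG ratio was 0.81 for GDNF, 0.659 for WNT16, 0.732 for ZBTB7C and 0.161 for CKM, with a median of 0.58. CKM therefore had few CpG for its base content of 64.3% G and C, while GDNF was rich in both.

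Of 7 motifs searched on both strands, the E-box CAGCTG, a form bound by basic helix-loop-helix factors of muscle and neuroendocrine cells, lay in the CKM window with its first printed base at position -99, the start being 0. It reads the same on both strands and occurred in 18.0% of all promoter windows. The GC box GGGCGG lay at -192 in CKM and at -204 in the printed ZBTB7C window (45.0% of all windows). The TEAD motif CATTCC lay at 19 in WNT16 and at -15 in ZBTB7C (14.0%). None of the 7 was found in the printed GDNF window. The printed windows also lacked the E-box CAGATG (14.7%), TATAAA (11.5%), the AP-1 motif TGANTCA (7.68%) and the RUNX motif TGTGGT (13.1%). The windows not printed did hold some of these motifs. CAGCTG lay at -131 in the GDNF window 4.21 kb into the gene. It lay at -228 in the one at 5.22 kb, which also held GGGCGG and TGTGGT. The ZBTB7C window at 37.0 kb held TGTGGT at -115 and -62. The one at 219 kb held CAGATG at -210 and TGANTCA at -6. A match is a string of letters and was not tested for binding.

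The peaks that chose the genes were wide and high in the H69 list. At CKM, on the minus strand of chromosome 19 from 45809671 to 45826235, the peak ran from 45824202 to 45828177 with a score of 3100. At GDNF, on the minus strand of chromosome 5 from 37812779 to 37839782, it ran from 37837618 to 37841289, also with a score of 3100. At WNT16, on the plus strand of chromosome 7 from 120965421 to 120981158, it ran from 120968695 to 120971149 with a score of 3100. At ZBTB7C, on the minus strand of chromosome 18 from 45553639 to 45935663, it ran from 45934302 to 45937198 with a score of 2887.74. Scores in the H69 list reach 3233.06 but pile up at 3100, and 8.93% of the H69 H3K27ac peaks lie at or above that value, so the first 3 cannot be ranked against each other. The remaining peak of the selection, on chromosome 10 from 115717615 to 115721011 and also with a score of 3100, lay in none of the windows. Just outside the selection came a peak on chromosome 14 from 96341877 to 96343996 with a score of 2308.96.

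The nearest H69M H3K27ac peak lay 14.4 kb from the WNT16 peak, 19.4 kb from the CKM peak, 49.9 kb from the GDNF peak and 65.0 kb from the ZBTB7C peak. Of all H69 H3K27ac peaks, 13.0% had no H69M peak within 5000 bp, and in the 4 windows 29 of 41 had none, a count that the choice of the genes itself raised. Only 49 H69 peaks in the genome combined a score of 1000 or more with no H69M peak within 5000 bp. The 4 windows held 7 of these 49, of which 4 lay in ZBTB7C.

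**Figure D1:**
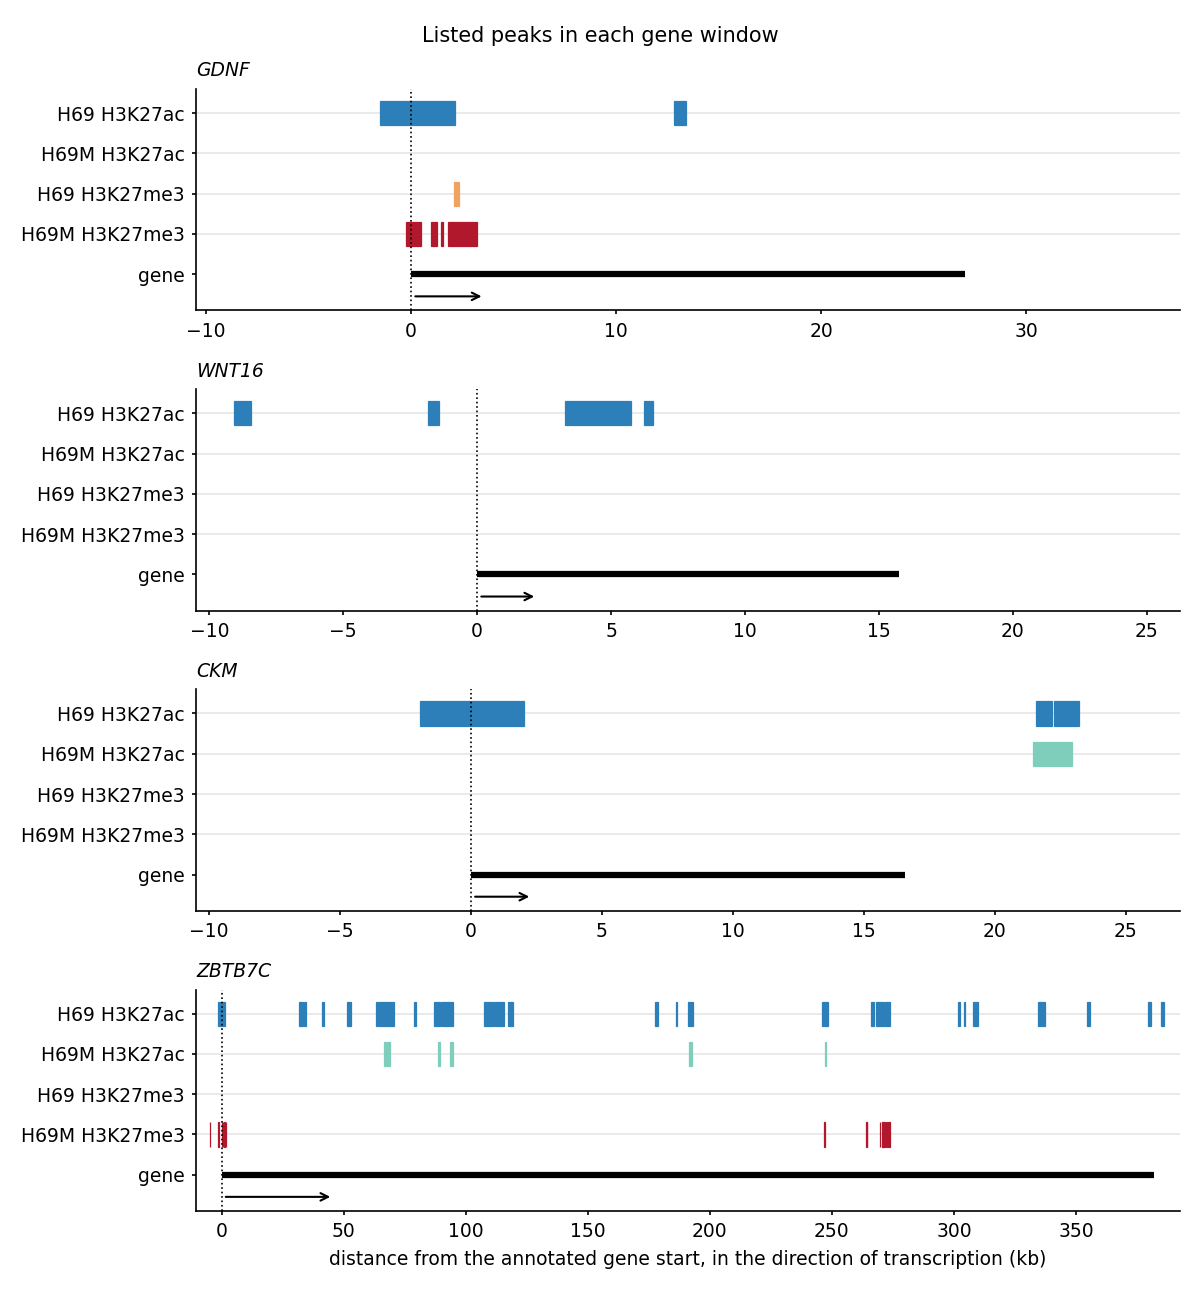
Peaks of the 4 lists in each gene window, with the distance from the hg19 gene start in kb on the x axis and 1 row per list, each box being 1 listed peak. H69 H3K27ac lies over or near every gene start, H69M H3K27ac is listed at no gene start, and H69M H3K27me3 appears in GDNF (4 peaks) and ZBTB7C (16 peaks) only.

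In covered length, H3K27ac was longer in H69 in 4 of 4 windows. In the GDNF window it covered 4.26 kb in H69, with no listed peak in H69M. It covered 3.85 kb of the WNT16 window in H69 and was likewise not listed in H69M. In H69M, 1.49 kb of the CKM window was covered, against 5.52 kb in H69, and ZBTB7C had 6.73 kb against 52.9 kb. H69 was thus at least 2-fold longer in each of the 4. With 50 kb on each side of the genes in place of 10 kb, WNT16 was no longer so, with 3.85 kb in H69 against 3.21 kb in H69M, and GDNF came to 4.66 kb against 2.05 kb. Across the genome, 10.3% of the 40 kb tiles with H3K27ac were at least 2-fold longer in H69, and 4.99% of the 400 kb tiles, sizes close to the 3 short windows (35.7 to 47.0 kb) and to that of ZBTB7C (402.0 kb). The genes were chosen by single H3K27ac peaks for this same contrast of lines, so nothing is read from these lengths. All 7 H69M H3K27ac peaks in the windows overlapped an H69 peak, against 51.6% of the whole H69M H3K27ac list. Of these 7, 6 lay in ZBTB7C. The windows were chosen for H69 H3K27ac, so this count is a description too.

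H3K27me3 divided the 4 genes. In the GDNF window it covered 0.283 kb in H69 and, at 8.97 times that length, 2.54 kb in H69M. The ZBTB7C window was listed with no H3K27me3 peak in H69 and with 3.82 kb in H69M. The WNT16 and CKM windows held no H3K27me3 peak in either line. H3K27me3 was thus longer in H69M in 2 of 4 windows and shorter in none. With the windows taken by size, H3K27me3 was at least 2-fold longer in H69M in 1 of the 3 short windows, against 8.02% of all 40 kb tiles, and in the long window of ZBTB7C, against 21.3% of all 400 kb tiles. Among tiles whose H3K27ac was at least 2-fold longer in H69, the shares were 14.9% at 40 kb and 32.5% at 400 kb. Both windows with any H3K27me3 had it at least 2-fold longer in H69M, as did 49.1% of the 40 kb tiles and 44.1% of the 400 kb tiles with H3K27me3 in either line. Of all 40 kb tiles, 83.7% held no H3K27me3 in either line, and of those with H3K27ac at least 2-fold longer in H69, 77.1% held none. With 3 windows of the one size and 1 of the other, nothing particular to these genes is read from these shares.

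**Figure D2:**
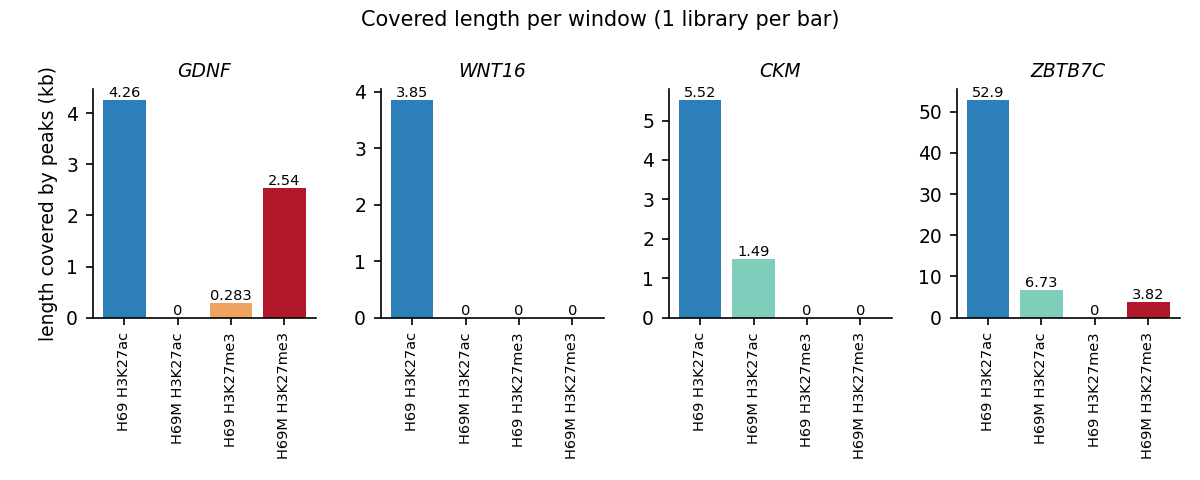
Length of each window covered by listed peaks, in kb, with 1 bar per list and 1 library per bar, so there are no error bars, and with a separate y axis per gene. H69 H3K27ac is the longest bar for each gene, and H69M H3K27me3 stands at 2.54 kb in GDNF and 3.82 kb in ZBTB7C against 0 in WNT16 and CKM.

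The H69M H3K27me3 of GDNF and ZBTB7C lay largely on ground that carried H3K27ac in H69. Of the 20 H69M H3K27me3 peaks in the windows, 16 overlapped an H69 H3K27ac peak, against 2.78% of all H69M H3K27me3 peaks. Read from the other mark, 5 of the 41 H69 H3K27ac peaks overlapped an H69M H3K27me3 peak, against 1.66% of all H69 H3K27ac peaks. The windows were chosen for strong H69 H3K27ac without H69M H3K27ac nearby, so the shares of the whole lists are not a like background for either count. ZBTB7C alone held 12 of the 16. Neighbouring peaks share a site, so these 20 amount to few separate places. The 49 strong H69 peaks without an H69M counterpart were set beside them. H69M H3K27me3 lay under 19 of the 49 (38.8%), under 3 of the 7 inside the windows, and under 16 of the 42 elsewhere (38.1%). With only 7 peaks in the windows, 4 of them in ZBTB7C, these shares cannot show whether the genes differ from the rest.

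GDNF carried the highest scoring H3K27me3 of the windows. Its H69M peaks had scores of 866.97, 51.39, 124.96 and 491.19, and only 0.439% and 1.21% of the H69M H3K27me3 list scored as high as the strongest pair. They spanned 3.44 kb, from -0.237 to 3.2 kb relative to the gene start. The peak with a score of 491.19, from 37839291 to 37840019, lay over the start itself and wholly inside the H69 H3K27ac peak. The peak with a score of 866.97 lay from 1.79 to 3.2 kb into the gene, mostly beyond the inner edge of that H3K27ac peak. Of its 1407 bp, 371 bp lay on the H3K27ac peak. In all, 1503 of 2539 bp of H69M H3K27me3 (59.2%) fell on ground that carried H3K27ac in H69.

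The H69 line was not free of H3K27me3 at GDNF. A single H69 peak with a score of 121.54, from 37837431 to 37837713, lay 2.07 to 2.35 kb into the gene at the inner edge of the H3K27ac peak and overlapped it by 96 bp. The H69M peak with a score of 866.97 overlapped it. Of the 20 H69M H3K27me3 peaks in the windows, 19 had no overlapping H69 peak, but so did 81.1% of the whole H69M list. Among the 19 strong H69 peaks with H69M H3K27me3 beneath them, the GDNF peak ranked 3 by the H3K27me3 score, and it was among 3 of the 49 that overlapped H3K27me3 in H69 already.

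H3K27ac at GDNF was otherwise sparse. A second H69 peak with a score of 93.81 lay 12.8 to 13.4 kb into the gene and had no H69M counterpart. The nearest peaks outside the window lay past the 3′ end of the gene, at 25.1 kb in H69 (score 98.03) and 25.0 kb in H69M (score 66.32), and overlapped each other. Upstream the next H69 peak was 50.5 kb away and the next H69M peak 582 kb away. Within its window GDNF thus had no H3K27ac listed in H69M, and the gene start was its one strong site in H69. With 50 kb on each side, H3K27ac rose from none to 2.05 kb in H69M and from 4.26 to 4.66 kb in H69.

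**Figure D3:**
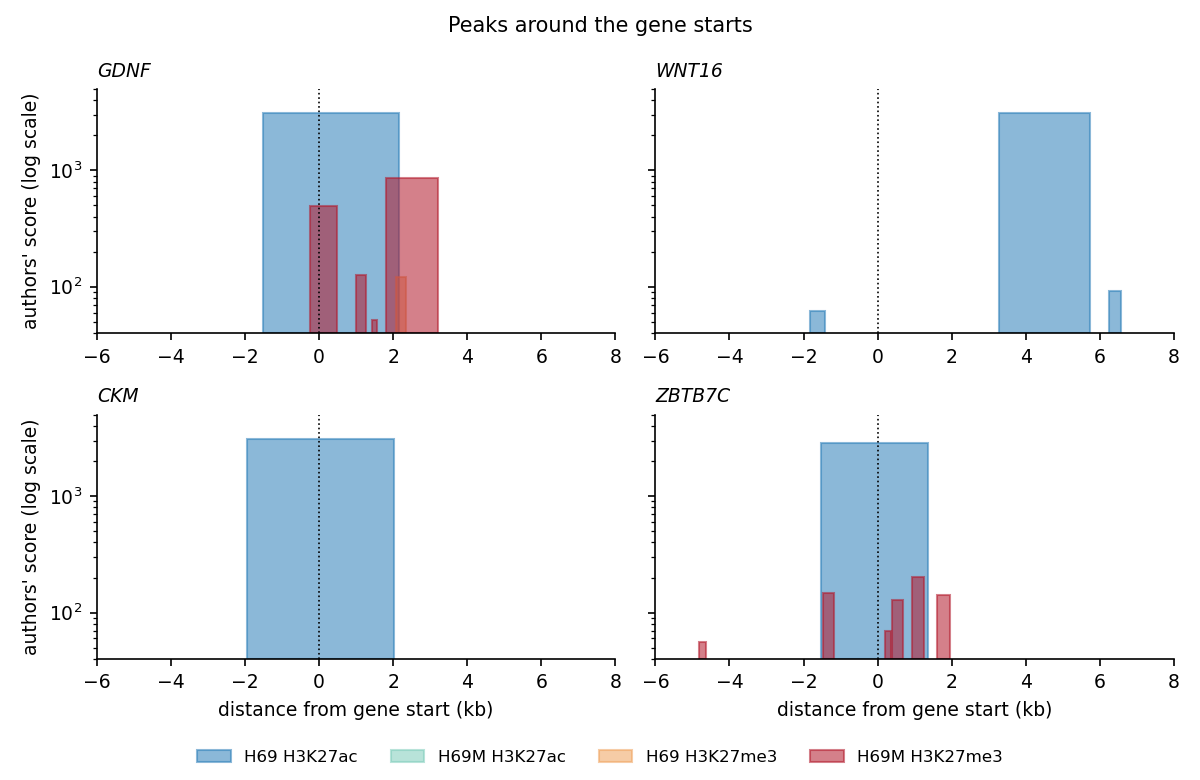
Peaks around the 4 gene starts, with distance from the start in kb on the x axis and the authors' score on a log y axis, each box spanning a peak's width and rising to its score. At GDNF and ZBTB7C some red H69M H3K27me3 boxes stand within the blue H69 H3K27ac box and others lie partly or wholly outside it. The tallest red box of GDNF lies mostly outside, and an orange H69 H3K27me3 box stands at the inner edge of the blue one. WNT16 and CKM show H69 H3K27ac alone.

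ZBTB7C held most of the H3K27ac peaks, in the longest window. There were 32 H69 H3K27ac peaks, which fell into 11 groups when peaks up to 10 kb apart were joined. They covered 13.2% of the window, a share within the range of the other genes, which had 15.1% at CKM, 10.8% at WNT16 and 9.06% at GDNF. Their scores ran from 55.68 to 3100 with a median of 266, and 8 of them scored 1000 or more. In H69M the window held 6 peaks with scores from 78.76 to 174.67, covering 1.67%. Of 7599 tiles of 400 kb, 63 had at least as much H69 H3K27ac as the ZBTB7C window, and of these 63 only 1, on chromosome 14, was at least 2-fold longer in H69 than in H69M. The median H69M to H69 ratio of the 63 was 1.09, against 0.127 for ZBTB7C. ZBTB7C was chosen by the peak over its start, for the same mark and the same lines, and not by its covered length. The tiles were not chosen in that way, so the comparison describes the gene and nothing is read from it.

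The H3K27ac peaks followed the whole length of the gene. Counted from the gene start, the segment from 50 to 100 kb was covered most, with 15.7 kb in H69 against 4.74 kb in H69M. This segment held both peaks of the window with a score of 3100, from 45840757 to 45845662 and from 45865236 to 45869803. The segment from 100 to 150 kb followed, with 9.43 kb in H69 and no peak in H69M. In H69M the first 50 kb and everything from 250 kb to the end of the gene held no H3K27ac peak, while H69 had 4.3 kb in the first 50 kb and peaks in each of the 8 segments.

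In ZBTB7C 9 of the 32 H69 peaks had an H69M peak within 5000 bp, and 5 of these 9 overlapped one, which was weak each time. The peak with a score of 3100 from 45840757 to 45845662 overlapped an H69M peak of 174.67, and the one from 45865236 to 45869803 overlapped a pair of H69M peaks of 131.58 and 105.61. The H69 peaks of 1897.51, 1568.83 and 398.84 overlapped H69M peaks of 78.76, 93.77 and 164.68. All 6 H69M scores lay under the median of the H69M list, which was 238, whereas the 5 H69 scores lay above the H69 median of 213. For the 4 of these H69 peaks with a score of 1000 or more, the overlapping H69M peaks were under that median in 4 of 4, against 1.33% of the 9393 strong H69 peaks that overlapped an H69M peak. Scores of libraries that differ in depth need not be on one scale. The gene was chosen by the peak over its start and not by these peaks, but for the same mark and lines, so this too is a description.

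The 16 H69M H3K27me3 peaks of ZBTB7C gathered at a few places. Of these, 6 lay around the gene start, from -4.82 to 1.95 kb, with scores of 142.31, 203, 127.2, 69.94, 147.75 and 55.92. Among these 4 overlapped the H69 H3K27ac peak over the start, covering 1103 bp of its 2897 bp. A group of 9 lay 264 to 274 kb into the gene, and its strongest peaks scored 254.14 and 255.65, values reached by 3.49% and 3.44% of the H69M list. In it 7 peaks lay on H69 H3K27ac peaks with scores of 668.96 and 1711.41. The remaining peak, with a score of 63.88 at 247 kb, lay on the H69 H3K27ac peak of 1568.83 and was the one H69M H3K27me3 peak of the windows that also touched an H69M H3K27ac peak. Together 78.3% of the H69M H3K27me3 length in ZBTB7C fell on H69 H3K27ac. The 11 H69 H3K27ac peaks from 51.5 to 119 kb into the gene, which included both peaks at 3100, carried no H69M H3K27me3, and 6 of the 11 had no H69M H3K27ac peak within 5000 bp either.

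**Figure D4:**
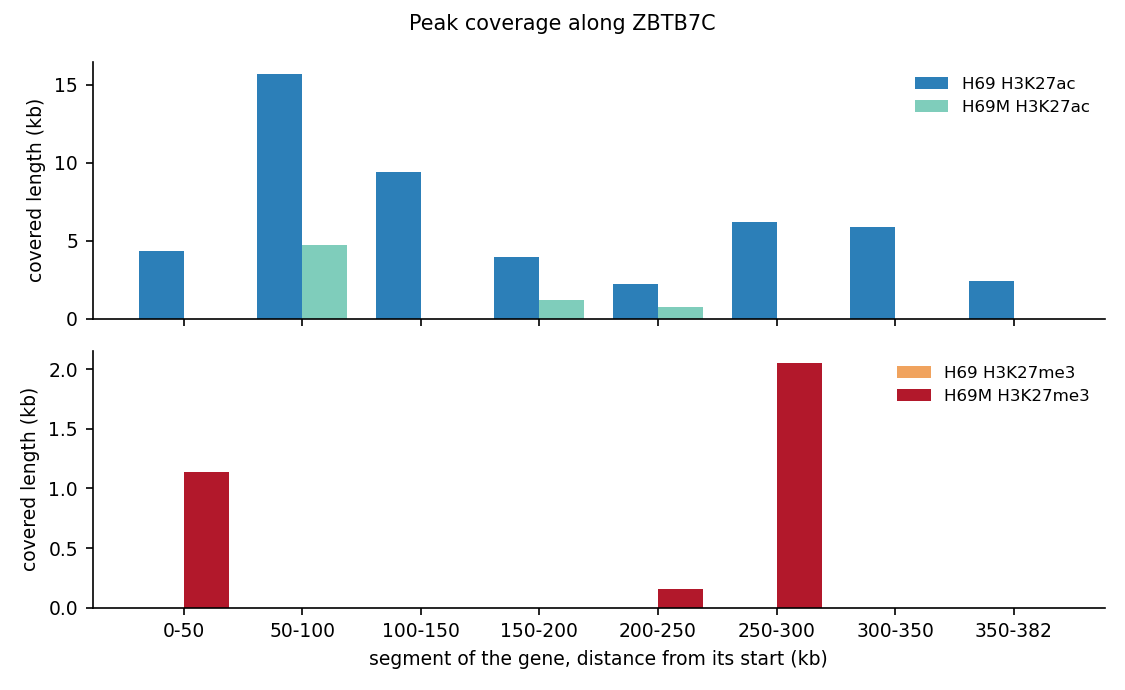
Covered length in kb (y axis) in segments of ZBTB7C counted from its start (x axis, kb), with H3K27ac above and H3K27me3 below, on different y scales. H69 H3K27ac is present in each of the 8 segments and highest at 50 to 100 kb (15.7 kb), while H69M H3K27me3 is confined to the first segment (1.14 kb) and to those at 200 to 250 kb (0.155 kb) and 250 to 300 kb (2.05 kb).

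RefSeq gives 3 starts inside ZBTB7C, and their distances can be set beside those of the H69M H3K27me3 peaks. Measured from the 3′ end of the gene on hg19, the 7 H69M H3K27me3 peaks on H3K27ac lay at 108.3 to 112.2 kb. The printed ZBTB7C promoter window has its start 110 kb from the 3′ end of the gene on GRCh38. The other RefSeq starts, at 349 and 167 kb by the same measure, had no H69M H3K27me3 at like distances on hg19, where none was listed from 135.1 to 380.1 kb. The gene is annotated with 382025 bp on hg19 and 385914 bp in the RefSeq table, so the distances are set side by side and it was not tested whether any start and peak are the same place.

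At WNT16 the H3K27ac peak did not cover the annotated gene start. It lay 3.27 to 5.73 kb into the gene, and the single RefSeq promoter window of WNT16 belongs to a start 3.63 kb into the gene on GRCh38, where the gene has the same length of 15738 bp. WNT16 is known to be transcribed from alternative first exons. Which start was used in either line, and whether the RefSeq start lies under the peak, was not tested. The other 3 H69 peaks of the window were weak, with scores of 103.15 and 61.74 upstream of the gene and 91.9 just behind the strong peak. None of the 4 overlapped an H69M peak, although the one at 103.15 had an H69M peak 2.02 kb away, just outside the window, with a score of 156.73. The next H3K27ac site downstream, 54.5 kb beyond the gene on the side of FAM3C, was listed at almost the same position in both lines, with scores of 2953.26 in H69 and 2989.41 in H69M. H3K27me3 was far away, at 265 kb upstream in H69 and at 2690 kb downstream in both lines.

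At CKM the strong H69 peak lay squarely over the gene start, from -1.94 to 2.03 kb, and was the widest of the 4 at 3976 bp. The only other H3K27ac of the window lay past the 3′ end of the gene, toward its neighbour MARK4. There 2 H69 peaks, with scores of 295.03 and 73.91, overlapped 1 H69M peak with a score of 363.88, and 86.7% of its length was shared. Outside the window the next H3K27ac peaks were also common to both lines, at 53.9 kb downstream (831.67 in H69 and 565.21 in H69M) and 46.8 kb upstream (863.55 and 1231.71). Within this window the lines thus differed mainly in the peak over its start. The nearest H69M H3K27me3 peak, with a score of 55.02, lay 21.6 kb upstream of the gene start, and the nearest of H69 lay 23037 bp upstream with a score of 56.43.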

How the data were processed

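ChIP-seq for H3K27ac and H3K27me3 was analysed in H69 and H69M, 1 library per group; the input libraries were not analysed here. Each of the 4 deposited lists gives a chromosome, start, end, a peak name that carries the word MACS, and the authors' score per peak, which starts at about 50 and whose definition is not given in the sources used here. Bowtie2, SAMtools 0.1.19 and build hg19 are named per the submitters' processing notes; these notes name no MACS version or setting, and whether input served as the control is not given in the sources used here. Depth is unknown, and a deeper library yields more and wider peaks.

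Peaks on chromosomes 1 to 22 and X were used, with 1-based hg19 coordinates. Windows were the gene spans with 10 kb added on each side. Covered length is the part of a window under merged peaks. Peaks were shared when they overlapped by 1 bp or more, and a gap is the distance between nearest edges. Tiles of 40 and 400 kb cover each chromosome from its first base to its last listed peak. Promoter windows, gene neighbours and motif shares come from RefSeq on GRCh38.p14, and no coordinate was converted between builds. Genes outside the 4 windows, including pathway partners and cell type markers, were not analysed here, since no hg19 annotation was used.

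All 4 genes are described. The planned rule names every H3K27ac peak over a gene start and the 3 highest peaks of each list per window; other peaks named were picked after their values were seen. The genes, lists and comparisons were chosen with earlier results of these data known. Alternatives were other flanks, equal list lengths, a score of 100 or more, and other definitions of sharing. The overlap and length routines were tested on simulated data. Python 3.11.15, pandas 2.3.3 and numpy 2.4.6 were used.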

Additional observations from a re-analysis of the deposited data

How the results depend on the processing

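The counts of genes with longer H3K27ac in H69 (4) and longer H3K27me3 in H69M (2) were the same without a flank, with a flank of 50 kb, with equal numbers of peaks and with scores of 100 or more. The 29 H69 H3K27ac peaks with no H69M peak within 5000 bp stayed within 1.5 times, from 20 with scores of 100 or more to 37 when a peak counted as shared only if 50% of it was covered. The GDNF H3K27me3 ratio of H69M to H69 stayed between 8.13 and 8.97. The H3K27ac ratios moved with the flank but kept their direction. With 50 kb on each side they were 0.44 for GDNF, 0.834 for WNT16, 0.475 for CKM and 0.21 for ZBTB7C, since H3K27ac listed in H69M farther out then entered the windows. Without a flank the CKM ratio was 0, because its 1 H69M peak lies past the gene's 3′ end. No H3K27me3 ratio exists for WNT16, CKM or ZBTB7C, whose windows held no H69 H3K27me3 peak. With 50 kb on each side CKM took in 0.171 kb of H3K27me3 in H69 and 0.116 kb in H69M, and ZBTB7C 0.27 and 4.04 kb. No paired analysis was possible because each group holds 1 library, and leaving out a replicate was not possible for the same reason. Unknown depth limits each statement that a peak was not listed.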
